A study of Mus musculus with 16 samples.

Results

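Tip-cell and sprouting genes were examined in brain endothelial cells (bECs) of mice with and without endothelial YAP/TAZ, after sham surgery or stroke. The members are Esm1, Apln, Aplnr, Pdgfb, Cxcr4, Plaur, Kcne3 and Trp53i11. They were chosen by gene symbol, and each symbol matched 1 row of the count table, which gives 8 of 37003 rows. All 8 passed the filter on low counts, which left 31085 genes to be tested.

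When a vessel sprouts, a tip cell leads with filopodia and stalk cells follow and form the lumen. VEGF favours the tip state and Notch signalling restrains it in the neighbours. Esm1 (the secreted proteoglycan endocan) and Apln (the peptide apelin) are widely used markers of tip cells, while Aplnr, the apelin receptor, is found mainly on venous and stalk endothelium. Pdgfb is the ligand by which endothelium recruits pericytes. Cxcr4 is the receptor of the chemokine CXCL12, Plaur is the receptor of urokinase, Kcne3 is an accessory subunit of potassium channels, and Trp53i11 is a p53-inducible gene that is often listed among tip-cell transcripts. Most adult brain endothelium is quiescent, and new sprouts can form after ischemia.

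The mRNA of sorted bECs was sequenced in 16 libraries, 4 in each of 4 groups. YT-iKO mice carried Pdgfb-iCreERT2+/- with Yapfl/fl and Wwtr1fl/fl, and CTRL littermates carried the same floxed alleles without the Cre transgene, which also encodes eGFP. Both genotypes received tamoxifen and then 30 min of middle cerebral artery occlusion (MCAo) or a sham operation, and cells were taken 72 h later from adult mice of both sexes. Each genotype thus has a sham and an MCAo group. Cre is driven by the Pdgfb promoter, so that the deletion is confined to cells that use it, and the transgene itself is absent from all controls. Each library is a pool of several mice whose sexes are not given. Sorting kept DAPI-, CD45- and CD31+ cells.

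Depth was 11418262 to 23074547 counts per library with a median of 16441012. The targeted genes matched their labels in every library. Yap1 was 111 to 112 CPM (counts scaled to library size with TMM factors) in CTRL sham and 38.6 to 59.2 CPM in YT-iKO sham, and the difference after sham was −1.18 ± 0.22 (log2 fold change ± SE, edgeR, adjusted p = 0.037). Wwtr1 (Taz) fell by 1.88 on the log2 scale (adjusted p = 0.0038). The 12 endothelial markers summed to 11641 to 26491 CPM per library, against 9.29 to 42.8 CPM for 11 markers of microglia and macrophages. A background of reads was measured over 1466 olfactory, vomeronasal and taste receptor genes, which endothelium does not use. Its density was 0.0413 to 0.421 CPM per kilobase (kb) of exon and did not separate the groups. Within CTRL MCAo it was 0.141, 0.289, 0.319 and 0.192 CPM per kb in replicates 1 to 4, and within YT-iKO MCAo it was 0.170, 0.412, 0.360 and 0.0413 CPM per kb. CTRL sham replicate 4 stands apart in some members, and results that rest on it are given with and without it.

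The promoter sequences of Esm1, Apln and Trp53i11 are shown because these genes had the lowest p values among the members. They are the 250 bases before the RefSeq start site (GRCm38.p6), at chr13:113209409-113209658 on the + strand for Esm1, chrX:48034854-48035103 on the − strand for Apln and chr2:93187298-93187547 on the + strand for Trp53i11. Capitals mark CTTCC, which is GGAAG on the other strand, a longer form of the core GGAA of the ETS factors that act in endothelium. The shorter GGAA and its reverse TTCC are not marked.
Esm1: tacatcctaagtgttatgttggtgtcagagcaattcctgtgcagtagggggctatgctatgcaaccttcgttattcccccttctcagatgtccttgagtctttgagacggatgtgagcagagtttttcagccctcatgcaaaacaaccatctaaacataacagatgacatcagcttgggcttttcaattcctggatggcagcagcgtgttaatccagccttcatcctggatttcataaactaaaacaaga
Apln: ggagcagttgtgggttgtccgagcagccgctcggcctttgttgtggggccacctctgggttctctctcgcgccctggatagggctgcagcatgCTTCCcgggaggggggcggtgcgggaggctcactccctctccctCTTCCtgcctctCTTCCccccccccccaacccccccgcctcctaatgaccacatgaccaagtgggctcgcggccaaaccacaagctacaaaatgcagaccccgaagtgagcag
Trp53i11: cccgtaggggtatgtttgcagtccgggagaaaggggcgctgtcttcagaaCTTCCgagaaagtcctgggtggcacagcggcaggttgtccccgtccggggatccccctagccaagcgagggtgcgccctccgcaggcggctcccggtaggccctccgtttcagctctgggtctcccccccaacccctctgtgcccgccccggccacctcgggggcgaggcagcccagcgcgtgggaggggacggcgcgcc

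Windows of 250 bases before to 50 bases after a start were found for 6 of the 8 members, and none was found for Aplnr and Pdgfb. Each of 3 motifs was searched on both strands. The motif GGAATG of the TEAD factors, through which YAP and TAZ reach DNA, was in the window of 0 of the 6 members and in 14.7% of all 32851 windows. Of the hypoxia motif only the form ACGTG was searched, and not GCGTG, which the Esm1 and Trp53i11 sequences above hold. ACGTG was in the window of 1 member, Kcne3, and in 19.6% of all windows. The longer form GGAAG of the ETS core GGAA was in the windows of Apln, Plaur, Kcne3 and Trp53i11 and in 71.4% of all windows. It shares its first letters with the TEAD motif. GGAA alone was not searched, and the Esm1 sequence above holds it as TTCC. These are matches of letters and not measured binding.

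The 8 members differed widely in level. Per kb of exon and averaged over the 16 libraries, Pdgfb was at 104 CPM per kb, higher than 99.4% of the genes tested. Trp53i11 followed at 11.8, Plaur at 7.72, Esm1 at 4.00 and Aplnr at 2.41 CPM per kb. Cxcr4 at 1.2, Kcne3 at 1.13 and Apln at 1.12 CPM per kb were the lowest, and the order of these last members is not resolved, since each varied more among libraries than it differed from its neighbours. Pdgfb is thus an abundant transcript of resting bECs, whereas Apln, Kcne3 and Cxcr4 were higher than 52.3% to 53.5% of the genes tested and Esm1 than 72.8%. Counts behind the low members were small, 15 to 116 per library for Apln, 15 to 72 for Cxcr4 and 13 to 78 for Kcne3. The background would give a median of 23.7% of the Apln counts, 22.8% for Kcne3, 20.5% for Cxcr4 and 19.7% for Aplnr, but 0.197% for Pdgfb.

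**Figure D1:**
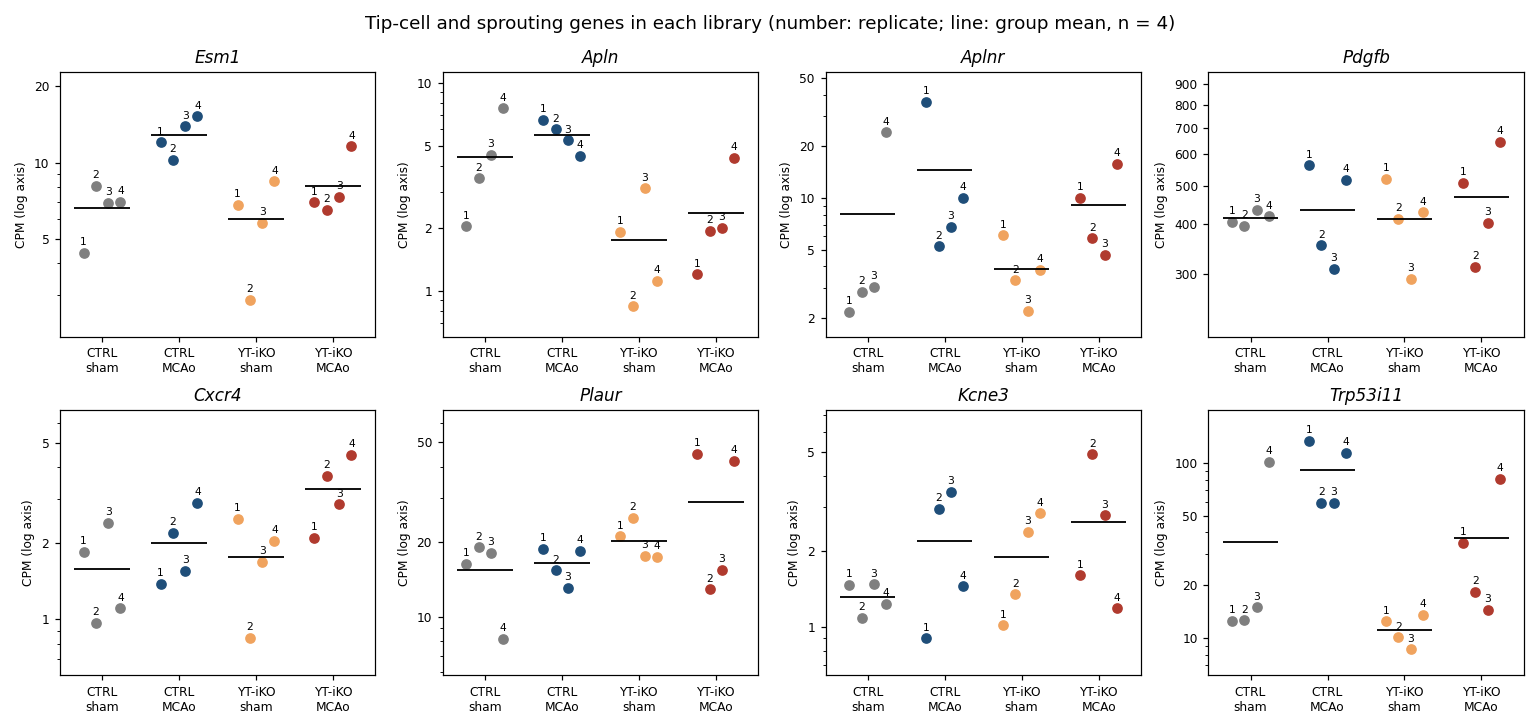
CPM of each of the 8 genes (vertical log axis) in the 16 libraries by group, with the replicate number at each point and a line at the group mean (n = 4). CTRL sham replicate 4 lies at 101 CPM for Trp53i11 and at 24.2 CPM for Aplnr, among the MCAo libraries of its genotype, and the Apln values of YT-iKO MCAo all lie below those of CTRL MCAo.

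Loss of YAP/TAZ after sham surgery was examined first. The threshold of the study, an adjusted p under 0.1 in DESeq2, was applied here to edgeR's quasi-likelihood test over all genes. None of the 8 members passed it, and 0.0965% of all genes did. At an unadjusted p under 0.05 there were 2 members, Apln and Trp53i11, both lower in YT-iKO, against 2.16% of all genes. DESeq2 and limma-voom likewise called 0 members. DESeq2 called 0.42% of the 15479 genes to which it gave an adjusted p, and limma-voom 0.46% of all genes. In 0 of the 8 the groups did not overlap, against 3.85% of all genes. With TMM factors from abundant genes (mean of 10 CPM or more) Plaur did not overlap, at 18.3 to 23.6 CPM in YT-iKO and 7.81 to 17.8 CPM in CTRL. The share of all genes without overlap on that scale was not computed. The median log2 fold change of the members was −0.08, beside 0.11 over all genes tested.

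After MCAo, YT-iKO and CTRL differed past the threshold in 0 of the 8 members, and in 0.0708% of all genes. At an unadjusted p under 0.05 there were 4 members, Esm1, Apln and Trp53i11 lower and Plaur higher in YT-iKO, against 1.49% of all genes. Groups did not overlap for 1 member, Apln, and for 0.981% of all genes. With TMM factors from abundant genes Esm1 and Trp53i11 did not overlap either, and the share of all genes on that scale was not computed. DESeq2 called 0 members and 0.461% of the 16914 genes to which it gave an adjusted p. Limma-voom with sample quality weights called 2 members, Apln and Trp53i11, in a fit that called 0.827% of all genes. Same-numbered libraries of these 2 groups deviated together, and with the replicate number as a block edgeR called 0 members and 0.109% of all genes, 34 in place of 22. Replicates 1 and 4 of both groups also had the lower background density, so that pairing and shared density cannot be told apart. The median log2 fold change was −0.28 for the members and 0.03 for all genes.

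The response to stroke in CTRL mice had the same sign in all 8 members, with positive fitted log2 fold changes of 0.07 for Pdgfb to 1.37 for Trp53i11, although those of Pdgfb and Plaur were negative in limma-voom. None passed the threshold, which 0.216% of all genes did, and 2 members (Esm1 and Trp53i11) had an unadjusted p under 0.05, against 3.5% of all genes. Groups did not overlap for 1 member, Esm1, and for 4.14% of all genes. DESeq2 called 0 members and 1.11% of the 18348 genes to which it gave an adjusted p. Limma-voom called 3 members, namely Esm1, Kcne3 and Trp53i11, in a fit that called 24.2% of all genes. The median was 0.54 for the members and 0.07 for all genes. Without CTRL sham replicate 4 edgeR called 1 member, Trp53i11, and 0.204% of all genes.

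In YT-iKO mice the 8 fitted log2 fold changes after MCAo were again all positive, from 0.18 for Pdgfb to 1.73 for Trp53i11, and those of Pdgfb and Plaur were again negative in limma-voom. No member passed the threshold in edgeR, DESeq2 or limma-voom. EdgeR called 0.318% and limma-voom 18.1% of all genes, and DESeq2 1.25% of the 19066 genes to which it gave an adjusted p. Cxcr4 and Trp53i11 had an unadjusted p under 0.05, 2 of 8 members against 3.01% of all genes. Trp53i11 was the 1 member without overlap between groups, against 1.28% of all genes. The median was 0.49 for the members and −0.02 for all genes.

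Whether the response to stroke differed between the genotypes was tested by the interaction term. It passed the threshold in 0 of the 8 members and in 0% of all genes, and no member had an unadjusted p under 0.05, against 0.373% of all genes. DESeq2 and limma-voom called 0 members as well, and limma-voom gave 1 member an unadjusted p under 0.05, against 4.4% of all genes in that fit. The response to MCAo was thus not shown to differ between CTRL and YT-iKO for any member. Each group enters more than 1 of these comparisons, which therefore share libraries.

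**Figure D2:**
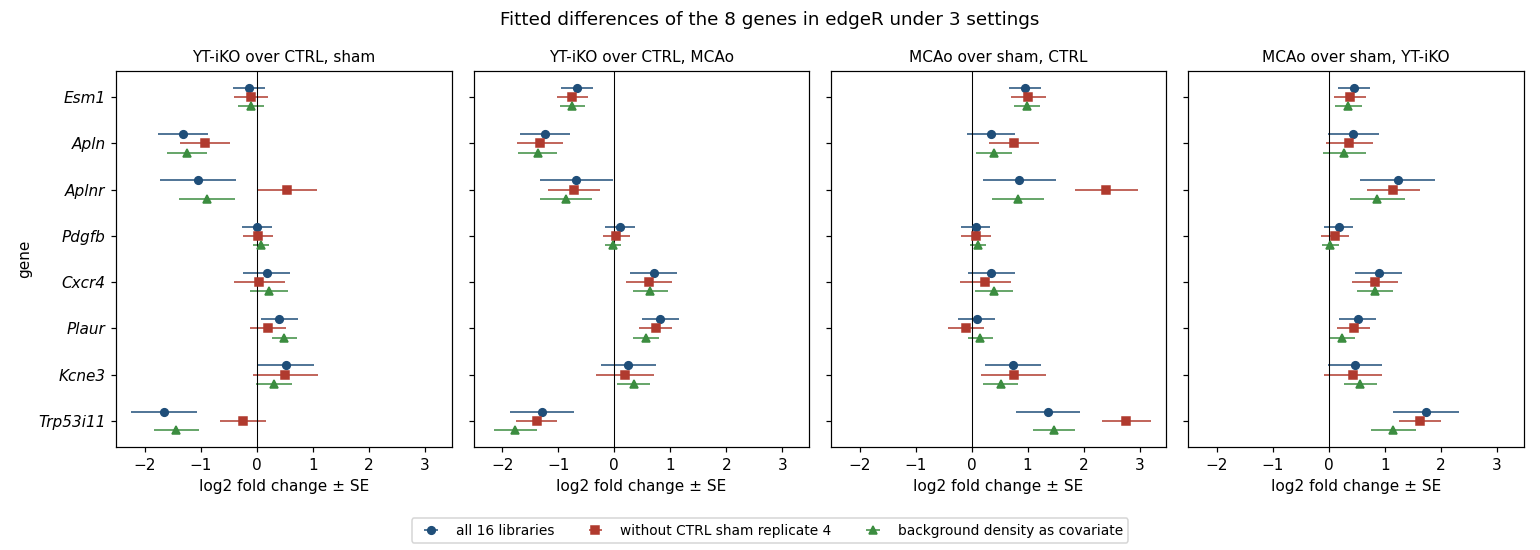
Fitted log2 fold changes with SE (horizontal axis) of the 8 genes in the 4 comparisons between groups, from edgeR on all 16 libraries (circles), without CTRL sham replicate 4 (squares) and with background density as a covariate (triangles). Leaving out that library moves Aplnr after sham from −1.06 to 0.54 and Trp53i11 from −1.66 to −0.25, while Esm1 keeps its place.

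Esm1 (ENSMUSG00000042379, chr13:113209659-113218098, GRCm38) was 4.41, 8.09, 6.92 and 7.02 CPM in CTRL sham replicates 1 to 4 and 12, 10.3, 13.9 and 15.2 CPM in CTRL MCAo. The groups did not overlap, and every CTRL library after stroke lay above every sham library. In YT-iKO it was 6.80, 2.87, 5.77 and 8.43 CPM after sham and 6.97, 6.52, 7.32 and 11.6 CPM after MCAo, and these groups overlapped. In CTRL the MCAo mean was 12.9 ± 2.17 CPM against 6.61 ± 1.56 CPM after sham (SD, n = 4), a log2 fold change of 0.96 ± 0.29 (SE, edgeR, adjusted p = 0.46, unadjusted p = 0.0029). In YT-iKO the means were 8.10 ± 2.35 and 5.97 ± 2.34 CPM (SD, n = 4), with a log2 fold change of 0.44 ± 0.29. Esm1 in MCAo libraries was thus higher than in sham libraries by 1.94-fold in CTRL and 1.36-fold in YT-iKO. The interaction, which compares these responses, did not pass the threshold (−0.52 ± 0.40, edgeR, unadjusted p = 0.21). After MCAo the genotypes differed by −0.67 ± 0.28 (edgeR, unadjusted p = 0.028), with YT-iKO the lower in every same-numbered pair. This passed the threshold neither without nor with the replicate number as a block.

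Esm1 in CTRL passed the threshold in some other fits. Fitted on the CTRL libraries alone, edgeR gave 0.99 with an adjusted p of 0.0071, where 2.52% of all genes passed, and limma-voom gave 0.84 with an adjusted p of 0.017. A fit with background density as a covariate, added after the values had been seen, gave 0.99 ± 0.23 (adjusted p = 0.015). With each library left out in turn the log2 fold change was 0.83 to 1.07. Fibroblast markers moved with this comparison, with a summed 31.6 to 39.2 CPM in CTRL MCAo and 19.7 to 22.9 CPM in CTRL sham (6 of 6 markers higher, no overlap, p = 0.0286 by exact permutation test, the smallest it can give), and 1 marker was at 0 in 1 CTRL sham library. Neuron markers summed to 28.5 to 37.2 CPM in CTRL MCAo and 37.9 to 44.8 CPM in CTRL sham, also without overlap (exact permutation p = 0.0286), although 5 of the 7 had the higher mean after MCAo and none was at 0. The part of these cells in the level of Esm1, Trp53i11 or any other member in this comparison was not tested. Likewise, fewer cells of a type and less RNA per cell cannot be told apart in any of these values.

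Apln (ENSMUSG00000037010, chrX:48025146-48034853) was 2.04, 3.48, 4.51 and 7.54 CPM in CTRL sham and 1.93, 0.843, 3.11 and 1.12 CPM in YT-iKO sham. After MCAo it was 6.63, 5.99, 5.29 and 4.47 CPM in CTRL and 1.2, 1.94, 2.01 and 4.36 CPM in YT-iKO. Every YT-iKO library after stroke lay below every CTRL library after stroke, by a margin that was narrow at its closest point (4.36 CPM from 70 counts against 4.47 CPM from 71), while the sham groups overlapped. The ratio of YT-iKO to CTRL was 0.399 after sham (−1.32 ± 0.45, edgeR, unadjusted p = 0.0076) and 0.425 after MCAo (−1.24 ± 0.44, unadjusted p = 0.011), with adjusted p of 0.99 and 1.00. The lower level in YT-iKO was thus of like size in both surgical states, without passing the threshold in either. The fitted MCAo response of Apln over all libraries was within its error, at 0.35 ± 0.43 in CTRL and 0.44 ± 0.45 in YT-iKO. Without CTRL sham replicate 4 the response in CTRL was 0.76, which did not pass the threshold.

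Because the background makes up a sizeable part of the few Apln counts, the values were also computed with the background taken off, on the assumption that it is even per kb of exon. The means were then 3.77 ± 2.37 CPM in CTRL sham, 4.85 ± 1.02 CPM in CTRL MCAo, 0.966 ± 0.738 CPM in YT-iKO sham and 1.60 ± 1.75 CPM in YT-iKO MCAo (SD, n = 4). The MCAo groups then overlapped, with YT-iKO MCAo replicate 4 at 4.23 CPM and CTRL MCAo replicate 4 at 3.86 CPM. After MCAo limma-voom gave −1.52 (adjusted p = 0.027) and edgeR with background density as a covariate −1.37 ± 0.35 (adjusted p = 0.073). DESeq2 gave −1.29 (adjusted p = 0.38). Without CTRL sham replicate 4, the highest of its group, the difference after sham was −0.93.

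Aplnr (ENSMUSG00000044338, chr2:85136225-85139923), the receptor of apelin, was 2.17, 2.85, 3.03 and 24.2 CPM in CTRL sham and 36.3, 5.23, 6.78 and 10.01 CPM in CTRL MCAo. In YT-iKO it was 6.07, 3.32, 2.20 and 3.82 CPM after sham and 10.03, 5.83, 4.66 and 15.9 CPM after MCAo. In both CTRL groups 1 library was far above the other 3, and the groups overlapped in every comparison. The fitted difference between genotypes after sham turned from −1.06 ± 0.67 to 0.54 without CTRL sham replicate 4, and the response to MCAo in CTRL went from 0.85 ± 0.65 to 2.41 (edgeR, adjusted p = 0.13). That response was −0.09 without CTRL MCAo replicate 1. No direction can therefore be given for Aplnr in CTRL. In YT-iKO the response was 1.23 ± 0.67 (unadjusted p = 0.081).

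Apela, the other ligand of this receptor, was 0 to 0.856 CPM in the 16 libraries. Its counts were too few to describe a difference.

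Trp53i11 (ENSMUSG00000068735, chr2:93187548-93201759) had the widest differences of the members after stroke. It was 12.6, 12.6, 15 and 101 CPM in CTRL sham and 133, 59.0, 59.1 and 114 CPM in CTRL MCAo. In YT-iKO it was 12.4, 10.1, 8.62 and 13.6 CPM after sham and 34.9, 18.4, 14.4 and 81.1 CPM after MCAo. Every YT-iKO library after stroke lay above every YT-iKO sham library, and in CTRL the same held for all sham libraries but replicate 4. CTRL sham replicate 4 was also highest of its group in Aplnr, Apln and the sprouting-associated genes Plvap (307 CPM against 21.6 to 50.4 CPM), Igfbp3 (166 against 29.2 to 60.4 CPM) and Fscn1 (12.5 against 1.92 to 4.51 CPM), which were chosen after their values were seen. Of the 30 other tip-cell or sprouting genes, it was the highest of its group in 15 and the lowest in 4.

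The log2 fold change of Trp53i11 after MCAo was 1.37 ± 0.57 in CTRL (edgeR, unadjusted p = 0.026, adjusted p = 1.00) and 1.73 ± 0.59 in YT-iKO (unadjusted p = 0.0076, adjusted p = 0.69). With the replicate number as a block Trp53i11 passed the threshold in CTRL (closing section), although these libraries were not read as pairs. Without CTRL sham replicate 4 it rose in CTRL by 2.77 (adjusted p = 0.010), from a sham mean of 13.4 ± 1.38 CPM (SD, n = 3) to 91.2 ± 38.0 CPM (SD, n = 4). Between genotypes it was lower in YT-iKO by 1.66 ± 0.59 after sham and 1.29 ± 0.57 after MCAo. The difference after sham rested on the same library, since it was −0.25 without it. The difference after MCAo was −1.39 (adjusted p = 0.52) without that library, and −2.01 without YT-iKO MCAo replicate 4. Without the latter the response in YT-iKO was 1.01. Means after MCAo were 91.2 ± 38.0 CPM in CTRL and 37.2 ± 30.6 CPM in YT-iKO (SD, n = 4), and the highest YT-iKO library, at 81.1 CPM, overlapped with CTRL. This overlap depended on the scaling. With TMM factors from abundant genes the ranges were 17.8 to 59.5 CPM in YT-iKO and 68.7 to 103 CPM in CTRL. No member passed the threshold between genotypes after MCAo with those factors. In each of the 4 same-numbered pairs of MCAo libraries YT-iKO was the lower, and with the replicate number as a block the difference was −1.58 ± 0.35 (edgeR, adjusted p = 0.14).

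Within each MCAo group the Trp53i11 level moved with the background density. Replicates 1 and 4 of both genotypes had the lower densities and the higher Trp53i11 values, and replicates 2 and 3 the reverse. With the density as a covariate the difference between genotypes after MCAo was −1.77 ± 0.39 (edgeR, adjusted p = 0.018) and the response in CTRL 1.47 ± 0.38 (adjusted p = 0.040), so that 2 members passed in each of these comparisons, the other being Apln between genotypes and Esm1 in CTRL. Limma-voom gave −2.02 (adjusted p = 0.013) between genotypes after MCAo, and DESeq2 −1.33 (adjusted p = 1.00). The response in YT-iKO was 1.15 with the covariate (adjusted p = 0.26). That fit called 233 genes (0.75%) between genotypes after MCAo and 632 genes (2.03%) for MCAo in CTRL, where the fit without it called 22 and 67.

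**Figure D3:**
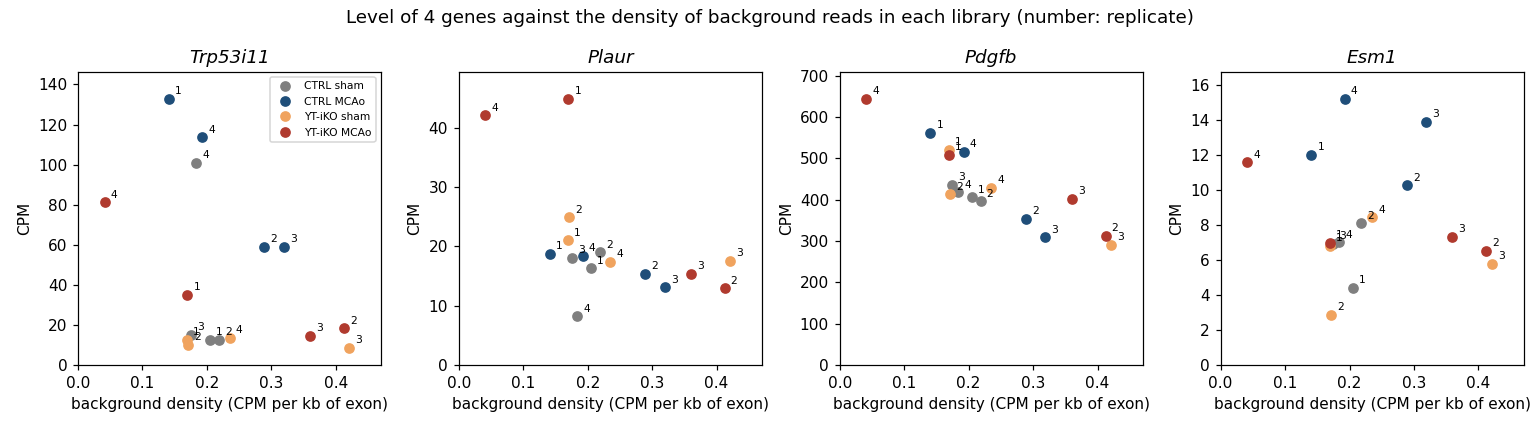
CPM of Trp53i11, Plaur, Pdgfb and Esm1 (vertical axis, from 0) against background density in CPM per kb of exon (horizontal axis) in the 16 libraries, coloured by group and numbered by replicate. Pdgfb is 562 and 516 CPM in the CTRL MCAo libraries of density 0.141 and 0.192, and 354 and 308 CPM at 0.289 and 0.319, whereas Esm1 is 10.3 to 15.2 CPM in CTRL MCAo libraries at all of these densities. In YT-iKO MCAo Esm1 is 11.6 CPM at the lowest density, 0.0413, and 6.52 to 7.32 CPM in the other libraries. With TMM factors from abundant genes it is 8.51 CPM at that density and 6.13 to 9.02 CPM in the others.

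Pdgfb (ENSMUSG00000000489, chr15:79995874-80014977) was 406, 396, 435 and 418 CPM in CTRL sham and 521, 413, 291 and 428 CPM in YT-iKO sham. After MCAo it was 562, 354, 308 and 516 CPM in CTRL and 508, 312, 402 and 645 CPM in YT-iKO. The 4 groups overlapped, with means of 413 to 467 CPM, and no fitted difference exceeded its error. After sham the log2 difference between genotypes was −0.002 ± 0.26 and after MCAo 0.10 ± 0.26. The sham value changed sign with several other settings, including RLE scaling. Pdgfb level thus stayed within 2.21-fold over the 16 libraries, the narrowest range of the members. With TMM factors from abundant genes it was 370 to 496 CPM over the 16 libraries.

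Since Cre is expressed from the Pdgfb promoter, the annotated neighbours were read too. Cbx7, a Polycomb gene on the − strand whose annotated start lies 24755 bases away, was 72.8 to 105 CPM in CTRL sham and 133 to 224 CPM in YT-iKO sham, with a log2 fold change of 1.09 ± 0.23 (edgeR, adjusted p = 0.12), and 1.12 ± 0.23 after MCAo (adjusted p = 0.12). All YT-iKO libraries lay above the CTRL libraries of the same surgery, but the threshold was not passed in edgeR. DESeq2 called Cbx7 in both states, with 1.09 after sham (adjusted p = 0.00040) and 1.09 after MCAo (adjusted p = 0.00059). The genotype differences of Apobec3, Rpl3 and Syngr1 did not exceed 0.62 on the log2 scale and none passed the threshold. Pdgfrb, the receptor of the ligand on pericytes, was 60.6 to 94.1 CPM in CTRL sham and 60.5 to 171 CPM in CTRL MCAo, and 35.1 to 81.7 CPM in YT-iKO sham and 57.4 to 161 CPM in YT-iKO MCAo. Its response to MCAo was 0.66 ± 0.35 for CTRL and 0.92 ± 0.35 for YT-iKO (edgeR, adjusted p = 1.00 in both). In limma-voom it was 0.62 for CTRL (adjusted p = 0.057) and 0.18 for YT-iKO (adjusted p = 0.60), so that the larger response was in the other genotype. Pericyte markers summed to 496 to 1501 CPM per library in these CD31+ cells, so that some pericyte RNA was present.

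Cxcr4 (ENSMUSG00000045382, chr1:128588199-128592293) was 1.85, 0.969, 2.41 and 1.1 CPM in CTRL sham and 1.38, 2.20, 1.56 and 2.90 CPM in CTRL MCAo. In YT-iKO it was 2.51, 0.843, 1.68 and 2.04 CPM after sham and 2.11, 3.70, 2.85 and 4.49 CPM after MCAo. The groups overlapped in every comparison, although the YT-iKO MCAo mean of 3.28 ± 1.03 CPM was the highest (SD, n = 4). After MCAo YT-iKO was the higher in every same-numbered pair. The genotype difference was 0.70 ± 0.41 (edgeR, unadjusted p = 0.10), and it passed the threshold neither without nor with the replicate number as a block. The response in YT-iKO was 0.89 ± 0.42 (edgeR, unadjusted p = 0.044, adjusted p = 1.00) and in CTRL 0.35 ± 0.42. Leukocytes also express this receptor, and the sort removed cells with CD45, the product of Ptprc. Ptprc was 3.25 to 5.36 CPM in CTRL sham, 4.22 to 9.92 CPM in CTRL MCAo and 2.94 to 10.04 CPM in YT-iKO sham, and 4.97, 10.1, 8.74 and 0.374 CPM in YT-iKO MCAo replicates 1 to 4. Of the 16 libraries, the one with the highest Cxcr4 (YT-iKO MCAo replicate 4) thus had the lowest Ptprc, and the one with the next highest Cxcr4 (replicate 2 of that group) had the highest Ptprc. The part of leukocyte RNA in the Cxcr4 values was not tested.

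The ligand Cxcl12 was far more abundant and had values in the other direction. It was 2882 to 3228 CPM in CTRL sham and 1496 to 2271 CPM in CTRL MCAo, without overlap, and 1832 to 3711 CPM and 1134 to 2103 CPM in the corresponding YT-iKO groups. The log2 fold change was −0.82 ± 0.28 in CTRL (edgeR, adjusted p = 0.76; DESeq2, 0.039) and −0.70 ± 0.28 in YT-iKO (adjusted p = 1.00; DESeq2, 0.11). Limma-voom called Cxcl12 in both (adjusted p = 7.9e-05 in CTRL and 0.014 in YT-iKO). Ackr3, the scavenging receptor of this chemokine, was 51.5 to 69.4 CPM in CTRL sham and 23.3 to 48.1 CPM in YT-iKO sham. After MCAo the ranges were 36.1 to 50.4 CPM and 11.7 to 33.0 CPM. The genotypes did not overlap in either state, with differences of −0.98 ± 0.28 (adjusted p = 0.95) and −0.82 ± 0.28 (adjusted p = 1.00) in edgeR, and limma-voom called Ackr3 in both (adjusted p = 0.0094 and 0.016) and DESeq2 in neither (0.14 and 0.43).

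Plaur (ENSMUSG00000046223, chr7:24462484-24475968) was 16.3, 19.0, 18.1 and 8.19 CPM in CTRL sham and 18.7, 15.4, 13.1 and 18.4 CPM in CTRL MCAo. In YT-iKO it was 21, 24.9, 17.6 and 17.4 CPM after sham and 44.9, 12.9, 15.4 and 42.1 CPM after MCAo. Replicates 1 and 4 of YT-iKO MCAo lay above all other libraries and replicates 2 and 3 among the lowest, so that the groups overlapped. With TMM factors from abundant genes replicates 1 to 4 were 39.5, 17.4, 19.0 and 30.9 CPM, against 14.5 to 17.9 CPM in CTRL MCAo. Replicates 2 and 3 were then no longer among the lowest. The genotype difference after MCAo was 0.82 ± 0.33 (edgeR, unadjusted p = 0.021, adjusted p = 1.00), 0.05 in limma-voom, which weights libraries by quality, and 0.57 with the density as a covariate. Replicates 1 and 4 had the lower background density, and the part of this in the result was not tested beyond that fit.

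**Figure D4:**
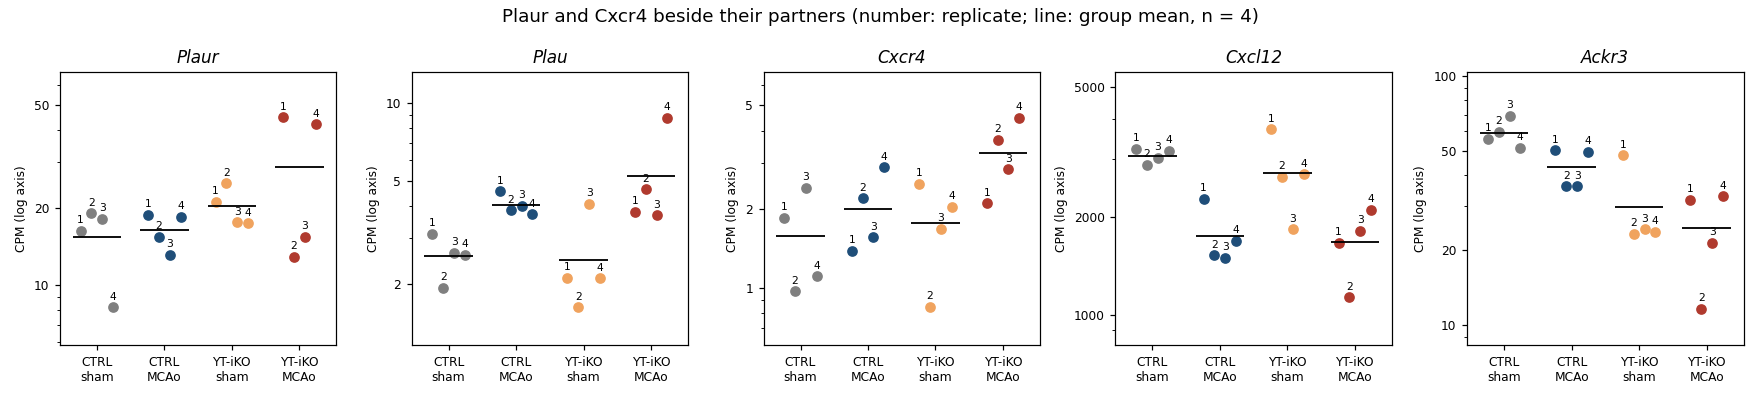
CPM (vertical log axis) of Plaur with Plau and of Cxcr4 with Cxcl12 and Ackr3 in the 16 libraries, numbered by replicate, with a line at each group mean (n = 4). Plau is 1.94 to 3.13 CPM in CTRL sham and 3.71 to 4.56 CPM in CTRL MCAo, while its YT-iKO groups overlap. Cxcl12 has lower means after MCAo in both genotypes.

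Plau, the urokinase that binds Plaur, was 1.94 to 3.13 CPM in CTRL sham and 3.71 to 4.56 CPM in CTRL MCAo. In YT-iKO it was 1.63 to 4.08 CPM after sham and 3.69 to 8.79 CPM after MCAo, and these groups overlapped. Its response was 0.65 ± 0.34 for CTRL and 1.07 ± 0.34 for YT-iKO (edgeR, adjusted p = 0.55 in YT-iKO), and neither passed the threshold. DESeq2 called neither. Limma-voom called both, with 0.63 (adjusted p = 0.058) in CTRL and 0.92 (adjusted p = 0.057) in YT-iKO. Those fits called 24.2% and 18.1% of all genes.

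Kcne3 (ENSMUSG00000035165, chr7:100176502-100184869) was 1.47, 1.08, 1.48 and 1.23 CPM in CTRL sham and 0.898, 2.96, 3.46 and 1.45 CPM in CTRL MCAo. In YT-iKO it was 1.01, 1.349, 2.40 and 2.83 CPM after sham and 1.60, 4.89, 2.78 and 1.18 CPM after MCAo. The groups overlapped throughout. The higher values after MCAo were in replicates 2 and 3 of both genotypes, which had the higher background density, the opposite of Trp53i11 and Plaur. The response was 0.73 ± 0.50 for CTRL and 0.47 ± 0.48 for YT-iKO. A stretch of 9 bases of its exons is shared with the antisense gene Gm34821, so that reads there cannot be assigned with certainty. Its channel partner Kcnq1 was 17.0 to 53.8 CPM, with a response of 0.51 ± 0.24 in YT-iKO (edgeR, adjusted p = 1.00). In limma-voom that response was −0.090 (adjusted p = 0.70), so that its direction is not settled.

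Of 30 other genes in use as tip-cell or sprouting genes, 1 passed the threshold in edgeR between genotypes after sham, against 0.0965% of all genes. This was Angpt2, a ligand that destabilises vessels, which fell by 1.38 on the log2 scale (edgeR, adjusted p = 0.015), from 28.0 to 43.9 CPM in CTRL to 11.3 to 15.1 CPM in YT-iKO. DESeq2 called it as well, and also the endothelial guidance receptor Robo4 (−0.85, adjusted p = 0.076, where edgeR gave 0.99). That fit called 0.42% of the genes with an adjusted p. None passed in edgeR after MCAo between genotypes or for MCAo in CTRL, where 0.0708% and 0.216% of all genes did. In YT-iKO 2 rose after MCAo, against 0.318% of all genes called. They were the adhesion molecule Mcam, by 1.92 ± 0.41 (adjusted p = 0.047), and the laminin chain Lamb1, by 1.85 ± 0.39 (adjusted p = 0.044). In CTRL the same genes had 1.64 ± 0.40 (adjusted p = 0.16) and 1.65 ± 0.38 (adjusted p = 0.12), and neither interaction exceeded its error. DESeq2 called Mcam, Lamb1 and Adm, the gene of adrenomedullin, in both genotypes, and Mmp14 and Nid1 in YT-iKO as well. It called 1.11% of the genes with an adjusted p in CTRL and 1.25% in YT-iKO. In limma-voom Lamb1 was 0.94 (adjusted p = 0.053) and Mcam 0.57 (adjusted p = 0.11) in YT-iKO, so that the call for Mcam was lost, and neither Mmp14 nor Nid1 was called there. Limma-voom called 16 of the 30 for MCAo in CTRL, 7 higher and 9 lower, against 24.2% of all genes, and 9 in YT-iKO, 3 higher and 6 lower, against 18.1%. Between genotypes it called 3 after sham (Angpt2, Lama4 and Robo4, all lower in YT-iKO), against 0.46% of all genes, and 5 after MCAo (the same genes and Nid1 lower, Sema3g higher), against 0.827%. Of these 30 genes 17 had a positive log2 fold change after MCAo in CTRL and 23 in YT-iKO, with medians of 0.11 and 0.39.

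Of 13 genes in use for stalk or quiescent cells and the Notch response, 1 passed in edgeR, Vash1, which encodes the angiogenesis inhibitor vasohibin. The call was between genotypes after sham, where 0.0965% of all genes passed. Vash1 fell there by 1.69 on the log2 scale (edgeR, adjusted p = 0.015), from 32.7 to 43.5 CPM in CTRL to 9.72 to 13.0 CPM in YT-iKO. After MCAo the difference was −1.25 ± 0.28 (adjusted p = 0.22) in edgeR. DESeq2 called it, at −1.28 (adjusted p = 0.0039), in a fit that called 0.461% of the genes with an adjusted p. Limma-voom called Vash1 in both states and Nrarp after MCAo, both lower in YT-iKO, against 0.46% of all genes after sham and 0.827% after MCAo. It also called 6 of the 13 genes lower for MCAo in each genotype, in the fits that called 24.2% and 18.1% of all genes. Astrocyte markers also differed between the sham groups, with a summed 61.7 to 81.2 CPM in YT-iKO and 97.6 to 112 CPM in CTRL (4 of 6 markers lower, none at 0, exact permutation p = 0.0286). Endothelial markers summed to 12833 to 22109 CPM in YT-iKO sham and 21317 to 23080 CPM in CTRL sham (12 of 12 lower, exact permutation p = 0.057). In YT-iKO sham 8 of 9 pericyte markers were lower and 6 of 7 neuron markers higher (exact permutation p = 0.057 for each sum). The part of these markers in the genotype differences after sham was not tested.

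The genes most like each member over the 16 libraries were found by Pearson r of log2(CPM + 1) among the 9132 genes that averaged 10 CPM or more. For Trp53i11 they were Pdia5 (r = 0.94), Nectin2 (0.93) and Bgn (0.93), and for Aplnr Slc29a1 (0.97), Ldb2 (0.92) and Pxdn (0.89). For Pdgfb they were Hfe, Zdhhc18 and Jam2 (0.96 to 0.97). For Esm1 Gmpr (0.83) and Paqr8 (0.82) were among them. For Apln they were Tlcd3b (0.84), Chst2 (0.79) and Rgl3 (0.79), and for Plaur Fnbp1l (0.89), Sh2d3c (0.87) and Adamts1 (0.87). For Kcne3 they were Mroh2a, Ank2 and Neb (0.82 to 0.83) and for Cxcr4 the interferon-responsive genes Oasl1 (0.79), Zbp1 (0.73) and Ifit2 (0.73). These values describe libraries that share group, depth and background, and without CTRL sham replicate 4 the first gene became Gmpr for Trp53i11 (0.99), Plvap for Esm1 (0.86), Zfp697 for Plaur (0.96) and Zdhhc18 for Pdgfb (0.97), and stayed the same gene for the other 4 members.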

How the data were processed

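RNA of sorted bECs was amplified with a SMART-Seq kit. Paired-end reads were mapped by the authors with STAR 2.7.8a to GRCm38, per the submitters' processing notes, with the GENCODE M12 annotation. They deposited raw counts per gene, not normalized, in 16 columns. The counting program and its handling of strand are not given in the sources used here. The reads carry no molecular identifiers. Gene positions and exon lengths were taken from GENCODE M21 (36861 of 37003 rows matched), and promoters from RefSeq.

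Counts were analysed in R 4.3.3 with edgeR 4.0.16 (TMM, filterByExpr at min.count 10 and min.total.count 15, quasi-likelihood test, all 4 groups in 1 model). Benjamini-Hochberg adjustment covered all 31085 genes, with a threshold of 0.1. SE is the absolute log2 fold change divided by the root of F. Marker sums, as log2(CPM + 1), were compared by exact permutation (two-sided, 70 assignments). The study names DESeq2, which was run as an alternative (1.42.0), as was limma 3.58.1. DESeq2 left some genes without an adjusted p, and its shares are of the genes that had one. The other alternatives are in the closing section. The scripts were tested on simulated data.

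The members and gene lists were chosen with earlier results of these data known. All 8 members were named in full, with fixed partners, the 2 protein-coding neighbours on each side of Pdgfb, list genes past the threshold and the 3 most similar genes. Some genes that this rule names are not reported here. Plvap, Igfbp3, Fscn1 and Ptprc were named after their values were seen. Same-numbered libraries were read as pairs where all 4 correlations of their deviations from the group means were above 0.1, which held between genotypes after MCAo (0.24 to 0.73). This rule cannot tell pairing from a shared background density. P values measure the spread between pools of mice. Intervals from counting were not used.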

Additional observations from a re-analysis of the deposited data

Results flagged for a closer look

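Within each group the highest and lowest library of every member was tested by Dixon's gap ratio (95% critical value for 4 libraries), in 32 combinations of gene and group. By chance about 1 in 20 combinations is marked. Esm1 in YT-iKO MCAo replicate 4, at 11.6 CPM, stood above the other 3 libraries of its group, at 6.52 to 7.32 CPM. This rested on the scaling. With TMM factors from abundant genes replicates 1 to 4 were 6.13, 8.78, 9.02 and 8.51 CPM. Aplnr in CTRL sham replicate 4, at 24.2 CPM, stood above 2.17 to 3.03 CPM. Aplnr in CTRL MCAo replicate 1, at 36.3 CPM, stood above 5.23 to 10.01 CPM. Trp53i11 in CTRL sham replicate 4, at 101 CPM, stood above 12.6 to 15 CPM. CTRL sham replicate 4 thus appears in 2 of the 4 results. Of the 9132 genes that averaged 10 CPM or more, 1.86% had this library as an outlier by the same ratio, against 0.942% to 1.5% for the other CTRL sham libraries and at most 2.2% over the 16 libraries (YT-iKO sham replicate 3).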

How the results depend on the processing

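Low counts limit what can be said of Apln, Cxcr4 and Kcne3, and 4 pools per group limit the rest. Alternatives were DESeq2, limma-voom with sample quality weights, RLE factors, TMM factors from abundant genes (mean of 10 CPM or more), no filter, a stricter filter (CPM over 1 in 4 libraries), an adjusted p under 0.05, only the groups compared, a replicate block, each library left out and, chosen after seeing the data, background density as a covariate. Of 40 member log2 fold changes 20 kept their sign in every one of these. The count of members called was 0 in the comparisons as reported. For genotype after MCAo it became 2 in limma-voom and 2 with the density covariate. For MCAo in CTRL it became 1 with only the groups compared, 1 with the replicate block, 3 in limma-voom, 2 with the density covariate and 0 to 1 with a library left out (1 without CTRL sham replicate 4). It stayed 0 for the other comparisons and alternatives. Counts over all genes moved more, from 30, 22, 67 and 99 to 115, 181, 554 and 534 with TMM factors from abundant genes, to 65, 78, 203 and 239 in DESeq2, to 143, 257, 7538 and 5626 in limma-voom, to 139, 233, 632 and 474 with the density covariate, and to 126, 32, 623 and 17 with only the groups compared (genotype after sham, genotype after MCAo, MCAo in CTRL, MCAo in YT-iKO). With each library left out they were 12 to 43, 11 to 47, 26 to 162 and 37 to 203 in the same order, lowest without YT-iKO sham replicate 4, CTRL MCAo replicate 4, CTRL sham replicate 2 and YT-iKO sham replicate 4, and highest without YT-iKO MCAo replicate 4 for the first 3 and YT-iKO MCAo replicate 2 for the last, so that the shares of all genes called rest on single libraries too. The abundant-gene factors moved the median log2 fold change of all genes from 0.11 to 0.30 after sham and from 0.07 to 0.21 for MCAo in CTRL.

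Replicate numbers were checked for pairing on 1000 genes. The median correlation of deviations was 0.25 for 24 same-numbered pairs, of which 19 were above 0.1, and −0.13 for 72 others. All 4 were above 0.1 between genotypes after MCAo, which were read as pairs, but 2, 3 and 2 of 4 for genotype after sham, MCAo in CTRL and MCAo in YT-iKO, which were not. Libraries of unlike number but like background density could also correlate. CTRL MCAo replicate 1 with YT-iKO MCAo replicate 4 gave 0.46, against 0.24 for replicate 4 of both. Pairing was thus not established. With the replicate block the calls went to 40, 34, 119 and 132, and Trp53i11 was 1.85 for MCAo in CTRL (edgeR, adjusted p = 0.024).

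Signs turned as follows, and the cause was not tested. With TMM factors from abundant genes Esm1 was 0.033 and Pdgfb 0.13 for genotype after sham, and Apln −0.21 and Pdgfb −0.026 for the interaction. In limma-voom Aplnr was 0.016 and Pdgfb 0.071 for genotype after sham, Pdgfb −0.18 and Plaur −0.014 for MCAo in CTRL, Pdgfb −0.17 and Plaur −0.37 for MCAo in YT-iKO, and Apln −0.060, Aplnr −0.36, Plaur −0.35 and Trp53i11 −1.28 for the interaction. Pdgfb for genotype after sham was 0.0048 with RLE factors, 0.0010 without a filter, 0.021 with CPM above 1, 0.028 with only the groups compared and 0.064 with the density covariate. With that covariate Pdgfb was −0.021 for genotype after MCAo, and the interaction was −0.13 for Apln, −0.085 for Pdgfb, 0.047 for Kcne3 and −0.33 for Trp53i11. With the replicate block the interaction was −0.13 for Apln and −0.47 for Trp53i11.

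With each library left out, genotype after sham was −0.37 to 0.083 for Esm1, −1.37 to 0.54 for Aplnr, −0.11 to 0.14 for Pdgfb and −0.038 to 0.44 for Cxcr4. Genotype after MCAo was −1.05 to 0.18 for Aplnr, −0.097 to 0.22 for Pdgfb and −0.28 to 0.52 for Kcne3. MCAo in CTRL was −0.087 to 2.41 for Aplnr, −0.024 to 0.18 for Pdgfb and −0.11 to 0.20 for Plaur. MCAo in YT-iKO was −0.025 to 0.81 for Apln, −0.025 to 0.30 for Pdgfb and −0.036 to 0.72 for Kcne3. The interaction was −0.39 to 0.46 for Apln, −1.26 to 1.24 for Aplnr, −0.10 to 0.22 for Pdgfb, −0.0028 to 0.64 for Plaur, −0.81 to 0.00083 for Kcne3 and −1.14 to 0.65 for Trp53i11. Of 64 group means computed with other factors or with the background taken off, 2 moved by over 1 SD, Pdgfb in CTRL sham to 387 CPM and Kcne3 in CTRL sham to 0.968 CPM. A pseudocount of 0.5 changed the side of 0.05 in 0 of 40 marker tests.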
